A study of Oncorhynchus mykiss with 9 samples.

Results

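The Myc genes described here are a pair of rows of the count tables of rainbow trout splenic IgM+ B cells, taken by their gene identifiers. GSONMG00066548001 is described in the tables as transcriptional regulator Myc-2-like and is called Myc-2-like below, and GSONMG00068469001 is described as myc proto-oncogene protein isoform X1 and is called the Myc proto-oncogene. They are 2 of 46585 genes, and both were among the 31691 genes that had at least 5 reads in at least 1 library. The libraries came from leukocytes of the spleen of female trout of 50 to 70 g, cultured for 24 h with TNP-LPS, with TNP-KLH or without antigen (control), after which IgM+ B cells were sorted by flow cytometry. There were 3 libraries in each group, 9 in all, numbered 1 to 3 within a group. TNP is the hapten 2,4,6-trinitrophenyl. In TNP-LPS it is coupled to lipopolysaccharide, a bacterial cell wall component, and in TNP-KLH to keyhole limpet hemocyanin, a large protein. The culture conditions and the sort were common to all groups, and the control cells were unstimulated cultures rather than freshly isolated cells. The sources call the libraries biological replicates but do not say whether those of a group came from separate fish, so a p-value here covers only how far these libraries spread, which may be technical.

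Myc is a transcription factor that binds DNA as a partner of Max. In mammals it is an early response gene that resting lymphocytes hold at a low level and raise after stimulation through the antigen receptor or through receptors for bacterial products, and its targets serve ribosome production, nutrient uptake, metabolism and the cell cycle. The Mxd and Mnt proteins compete with Myc for Max and repress the same sites. Trout carry extra copies of many genes from a genome duplication in the salmonid lineage, and reads shared by near-identical copies are not resolved by these counts. The tables give no gene lengths, positions or sequences, so the level of a gene beside that of another does not measure their relative transcript amounts. Levels, and the ratios, shares and sums of reads of several genes, were compared between groups.

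Library totals ran from 8080787 to 12164154 counts. Levels are CPM, the reads of a gene relative to the sequenced total of its library after TMM scaling. All 9 libraries entered one quasi-likelihood fit in edgeR, its p-values were adjusted by Benjamini-Hochberg over every gene kept, and a gene is called where the adjusted p is under 0.05. The 3 TNP-LPS and the 3 TNP-KLH libraries were set against the same 3 control libraries. Libraries of different groups that carry the same number deviated together from their group means, so a second fit took the number as a block, and its counts are given beside those of the lists. The median log2 fold change over all genes was −0.09 for TNP-LPS against control and −0.03 for each of the other comparisons. The sorted cells carried the B cell markers CD79 (1649 to 14049 counts in a library over its 3 rows) and BLNK (9061 to 24606 over 6 rows), while the 2 rows described as an Ig mu chain held only 55 to 153 counts together. Of 2 further B cell markers searched, EBF1 held 89 to 852 counts in a library over 4 rows, and no row was found for PAX5. Erythrocyte transcripts were highest in the libraries numbered 2, at 390 CPM in TNP-LPS replicate 2, 2372 CPM in TNP-KLH replicate 2 and 6887 CPM in control replicate 2, so key results are also given without these 3 libraries.

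Myc-2-like rose with TNP-LPS and, less firmly, with TNP-KLH. It had 199, 243 and 188 CPM in TNP-LPS cells, 117, 122 and 68.2 CPM in TNP-KLH cells, and 30.3, 37.4 and 25.4 CPM in control cells, for replicates 1, 2 and 3 in that order. Every TNP-LPS library lay above every TNP-KLH library, and every TNP-KLH library above every control library. The means were 210 ± 29.3 CPM in TNP-LPS, 102 ± 29.6 CPM in TNP-KLH and 31.1 ± 6.02 CPM in control cells (SD, n = 3 each), from 1284 to 2305 reads in a TNP-LPS library, 626 to 1340 in a TNP-KLH library and 300 to 358 in a control library.

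The difference of TNP-LPS from control was 2.76 ± 0.28 in log2 fold change (SE), a fold of 6.77 with a 95% interval of 4.36 to 10.5 (edgeR, adjusted p = 3.00e-04). Of all genes tested, 10% were called higher in this comparison and 17.4% had higher values in every TNP-LPS library than in any control library, and Myc-2-like had a larger log2 fold change than 98.5% of genes. Pair by pair, the fold was 6.57 between the libraries numbered 1, 6.51 between those numbered 2 and 7.39 between those numbered 3. The call held when any 1 of the 9 libraries was left out (edgeR adjusted p up to 0.00224) and without the 3 libraries numbered 2 (adjusted p = 0.0188).

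TNP-KLH gave a log2 fold change of 1.72 ± 0.27 against control, a fold of 3.29 with a 95% interval of 2.16 to 5.04 (edgeR, adjusted p = 0.0364). In this comparison 0.76% of genes were called higher, and 9.67% had higher values in every TNP-KLH than in any control library. The fold was 3.85, 3.26 and 2.68 between the libraries numbered 1, 2 and 3. This call was not stable to the choice of libraries: it held without TNP-LPS replicate 1 (edgeR adjusted p = 0.0351) and was lost without any other single library (adjusted p of 0.0631 to 0.147). In the fits that lost it, at most 1 gene of the whole table was called higher. With 1 library left out the log2 fold change ran from 1.57 to 2.01 (edgeR unadjusted p of 2.69e-05 to 5.96e-04). The call was also lost without the 3 libraries numbered 2 (adjusted p = 0.434), where no gene of the whole table was called. With the number as a block it held without each library in turn (edgeR adjusted p up to 0.00238), where 6.05% of genes were called higher in the fit of all libraries.

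Between the antigens, Myc-2-like differed by 1.04 ± 0.27 in log2 fold change (SE), TNP-LPS over TNP-KLH, a fold of 2.05 with a 95% interval of 1.36 to 3.11. The adjusted p was 0.0755 by edgeR without the block and 8.18e-04 with it, where the log2 fold change was 1.07. DESeq2 gave an adjusted p of 0.00737. Higher calls made up 2.12% of genes without the block, 8.49% with it and 7.54% with DESeq2, and 14.0% of genes had higher values in every TNP-LPS than in any TNP-KLH library. The fold was 1.71, 2.00 and 2.75 between the libraries numbered 1, 2 and 3. The order of the levels was TNP-LPS, TNP-KLH, control, and the step between the antigens passed the test only with the block or with DESeq2.

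**Figure D1:**
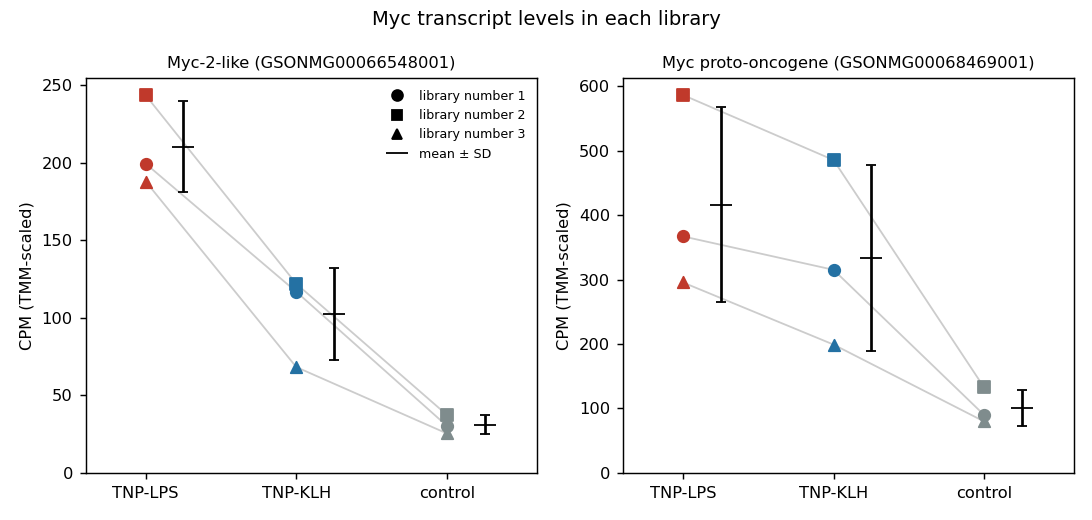
Level of each Myc gene (vertical axes, TMM-scaled CPM, each axis from 0) in TNP-LPS, TNP-KLH and control libraries, with a grey line joining libraries of the same number and black bars for mean ± SD (n = 3). The Myc-2-like groups do not overlap, at 188 to 243 CPM in TNP-LPS, 68.2 to 122 CPM in TNP-KLH and 25.4 to 37.4 CPM in control libraries, while TNP-LPS and TNP-KLH overlap for the Myc proto-oncogene, and library 2 is the highest of its group in every case.

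The Myc proto-oncogene rose with TNP-LPS, and its TNP-KLH libraries overlapped with the TNP-LPS ones. Its levels were 367, 586 and 296 CPM in TNP-LPS cells, 315, 486 and 199 CPM in TNP-KLH cells, and 89.9, 133 and 79.8 CPM in control cells, for replicates 1, 2 and 3. All 6 antigen libraries lay above all 3 control libraries, which 7.89% of genes tested also showed, but the ranges of the antigens overlapped. The means were 416 ± 152 CPM in TNP-LPS, 333 ± 144 CPM in TNP-KLH and 101 ± 28.02 CPM in control cells (SD, n = 3 each). Reads ran from 2364 to 5553 in a TNP-LPS library, 1827 to 5335 in a TNP-KLH library and 889 to 1269 in a control library.

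Against control, TNP-LPS gave a log2 fold change of 2.05 ± 0.39 (SE), a fold of 4.13 with a 95% interval of 2.27 to 7.51 (edgeR, adjusted p = 0.00565), above 96.0% of genes. The call held without each of the 9 libraries in turn and without the 3 libraries numbered 2 (edgeR adjusted p = 0.0254). For TNP-KLH against control the log2 fold change was 1.73 ± 0.38, a fold of 3.31 with a 95% interval of 1.83 to 5.97, and the adjusted p of 0.0727 missed the threshold. With the number as a block it was called (log2 fold change 1.67, edgeR adjusted p = 7.27e-05), as it was with DESeq2 (adjusted p = 5.09e-04). DESeq2 called 5.06% of genes higher in that comparison.

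Between libraries of the same number, the fold of TNP-LPS over control was 4.08, 4.42 and 3.70, and that of TNP-KLH over control was 3.51, 3.66 and 2.50, for the libraries numbered 1, 2 and 3. The antigens differed by 0.32 ± 0.37 in log2 fold change, TNP-LPS over TNP-KLH, with a 95% interval of −0.51 to 1.15 (edgeR, adjusted p = 0.794). With the block the difference was 0.35 with an interval of −0.031 to 0.73 (adjusted p = 0.249), and the folds between libraries of the same number were 1.16, 1.21 and 1.48. The difference turned to −0.0034 without TNP-KLH replicate 3 and to −0.0085 without TNP-LPS replicate 2. The order of its levels was thus TNP-LPS and TNP-KLH, which were not told apart, and then control.

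**Figure D2:**
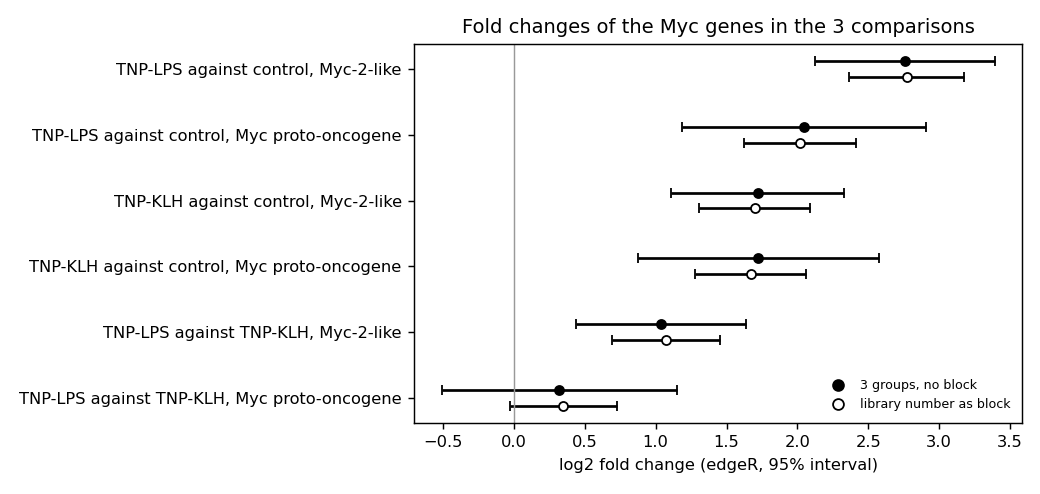
log2 fold change of each Myc gene with its 95% interval (horizontal axis) in the 3 comparisons, from the fit without the block (filled) and with the library number as a block (open). The intervals are narrower with the block, and the interval of the Myc proto-oncogene for TNP-LPS against TNP-KLH, −0.51 to 1.15 without the block, includes 0 in both fits.

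Since both genes are read in the same library, their ratio needs no scaling, and a change in it shows that they moved by different amounts. The log2 ratio of Myc-2-like to Myc proto-oncogene counts was −0.88, −1.27 and −0.65 in TNP-LPS libraries, −1.43, −1.99 and −1.55 in TNP-KLH libraries, and −1.57, −1.83 and −1.65 in control libraries. Every TNP-LPS value lay above every other value, and the TNP-KLH and control values overlapped. As a share of the reads of both genes, Myc-2-like took 29.3 to 38.9% in TNP-LPS cells, 20.1 to 27.0% in TNP-KLH cells and 22.00 to 25.2% in control cells.

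The mean log2 ratio was −0.93 ± 0.31 in TNP-LPS cells, −1.66 ± 0.30 in TNP-KLH cells and −1.68 ± 0.13 in control cells (SD, n = 3 each). TNP-LPS was higher than control by 0.75 ± 0.20 (SE) and higher than TNP-KLH by 0.72 ± 0.25, in both comparisons in 3 of 3 library numbers. Each had a two-sided exact permutation p of 0.1, the smallest that 3 against 3 libraries can give, so these differences could not pass 0.05, adjusted over the 3 comparisons or not. TNP-KLH and control differed by 0.024 ± 0.19 (exact permutation p = 0.9). The summed level of both genes was 627 ± 181 CPM in TNP-LPS cells, 436 ± 170 CPM in TNP-KLH cells and 132 ± 33.9 CPM in control cells.

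**Figure D3:**
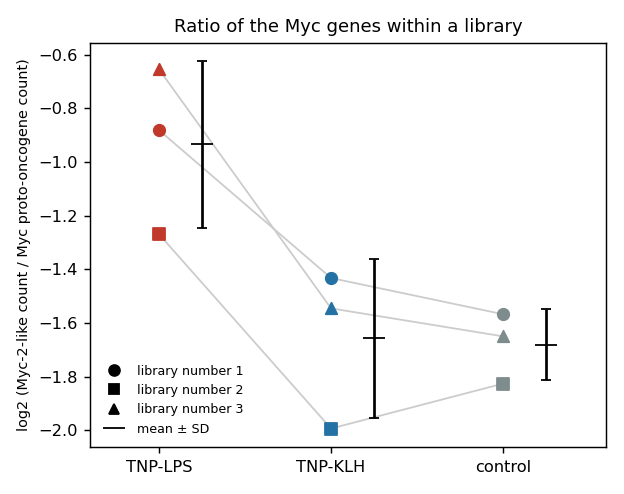
log2 ratio of Myc-2-like to Myc proto-oncogene counts within each library (vertical axis) for TNP-LPS, TNP-KLH and control, with lines joining libraries of the same number and black bars for mean ± SD (n = 3). The TNP-LPS values, −1.27 to −0.65, lie above all TNP-KLH and control values, −1.99 to −1.43.

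The pair also varied together within a group. Both genes were highest in library 2 and lowest in library 3 of every group. Their deviations from the group means, on the log2 CPM scale, had a Pearson correlation of 0.908 over the 9 libraries. For comparison, values are given for the 5 rows nearest in pattern to each gene. These rows were picked by correlation over the same 9 libraries, which favours high values. How common such covariation is among all genes was therefore not tested. With the Myc proto-oncogene, FAM46C had 0.924, a large neutral amino acid transporter small subunit 3-like row 0.975 and a hemicentin-1-like row 0.926. Neutral amino acid transporter B(0) had 0.924 with it and an Mcl-1-like row 0.841. The 5 rows nearest to Myc-2-like in pattern had 0.689 to 0.805 with Myc-2-like, below the 0.908 of the pair. Both genes of a library share its depth and its number, and the sources do not state what the number stands for. The erythrocyte transcripts were highest in the libraries numbered 2 as well, and their part in the Myc values was not tested. Without these 3 libraries the log2 fold change of TNP-LPS against control was 2.81 for Myc-2-like.

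The tables hold 10 rows of the Myc family, all kept. With TNP-LPS 3 were called higher, the 2 members among them, where 10% of all genes were. The block called 4 higher and 2 lower, beside 16.3% and 14.2% of all genes. Besides the members, the row called without the block was another one described as transcriptional regulator Myc-2-like (GSONMG00070347001). It had 172, 363 and 240 CPM in TNP-LPS libraries, 123, 260 and 152 CPM in TNP-KLH libraries and 69.7, 115 and 116 CPM in control libraries. TNP-LPS and TNP-KLH libraries overlapped, and both lay above all control libraries. Its log2 fold change was 1.37 ± 0.37 for TNP-LPS against control (adjusted p = 0.0316 by edgeR) and 0.83 ± 0.37 for TNP-KLH against control (adjusted p = 0.387, and 0.0121 with the block).

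The remaining Myc row, described as transcription factor Myc isoform X1 (GSONMG00065805001), had 63.7, 166 and 101 CPM in TNP-LPS libraries, 55.2, 156 and 75.4 CPM in TNP-KLH libraries and 35.3, 123 and 67.9 CPM in control libraries. The groups overlapped, and the spread between library numbers exceeded that between groups. Its log2 fold change for TNP-LPS against control was 0.55 ± 0.53 (edgeR, adjusted p = 0.551), and it was called with the block (adjusted p = 0.0120). Over the 4 Myc rows the log2 fold change for TNP-LPS against control thus ran from 0.55 to 2.76. Between the antigens no row of the family was called by edgeR without the block (1 at an unadjusted p under 0.05, and 1 called with DESeq2, in both cases Myc-2-like).

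L-Myc and N-Myc are the other branches of the family, known in mammals mostly from neural and other tissues outside mature lymphocytes. The 4 L-Myc-1b-like rows and the 2 N-Myc rows averaged at most 30.4 CPM in any group, the highest being a partial L-Myc-1b-like row (GSONMG00060130001) with 22.1 ± 6.86 CPM in TNP-LPS cells, 30.4 ± 8.56 CPM in TNP-KLH cells and 30.2 ± 6.32 CPM in control cells. None of the 6 passed edgeR's test without the block in any comparison. With the block, N-Myc GSONMG00017010001 (log2 fold change −0.78 without the block, adjusted p with it 0.0340) and L-Myc-1b-like GSONMG00074312001 (−1.75, adjusted p with it 0.00997) were called lower with TNP-LPS, which 14.2% of genes were.

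The Max and Mlx network holds the partners and rivals of Myc at DNA. Of 26 rows, 22 were kept, and 2 rose and 3 fell with TNP-LPS, with a median log2 fold change of 0.34 beside −0.09 over all genes. The shares called higher and lower were 9.09% and 13.6%, beside 10% and 6.73% of all genes in this comparison. Max (GSONMG00014386001), the partner that Myc needs to bind DNA, had 73.8, 64.7 and 77.9 CPM in TNP-LPS libraries, 48.3, 42.8 and 54.7 CPM in TNP-KLH libraries and 37.9, 37.0 and 47.2 CPM in control libraries. Every TNP-LPS library lay above all others, and the TNP-KLH and control libraries overlapped. Its log2 fold change for TNP-LPS against control was 0.82 ± 0.19 (edgeR, adjusted p = 0.0170), and for TNP-KLH against control it was 0.26 ± 0.19 (adjusted p = 0.672).

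A Max-like row (GSONMG00039265001) also rose with TNP-LPS, at 27.9 ± 7.10 CPM against 15.6 ± 3.46 CPM in control cells (log2 fold change 0.84, adjusted p = 0.0452 by edgeR). A different Max-like row (GSONMG00051956001), at 38.6 ± 8.05 against 25.1 ± 1.85 CPM, had an adjusted p of 0.0687. Mxd1 and Mnt are repressors that bind Max in place of Myc. Both Mxd1 rows, named after their values were seen because they are scarce, were called lower with TNP-LPS. GSONMG00043478001 had 1, 6 and 8 reads in TNP-LPS libraries, 8, 12 and 19 in TNP-KLH libraries and 30, 45 and 60 in control libraries (edgeR, adjusted p = 0.00723). GSONMG00057333001 had 1, 1 and 3 reads in TNP-LPS libraries, 5, 1 and 14 in TNP-KLH libraries and 32, 4 and 57 in control libraries (edgeR, adjusted p = 0.0448). Control replicate 2, with 4 reads, thus lay below TNP-KLH replicates 1 and 3. The kept Mnt rows, 5 in all, were not called with TNP-LPS without the block, with log2 fold changes of −0.18 to 0.95. With the block, 2 of them were called higher.

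Mlx (GSONMG00043449001), the Max-like partner of the glucose-sensing factors MondoA and ChREBP, fell with TNP-LPS to 18.2 ± 3.57 CPM, with 24.7 ± 0.542 CPM in TNP-KLH cells and 36.2 ± 3.75 CPM in control cells (log2 fold change −0.99 ± 0.20, edgeR adjusted p = 0.00762 for TNP-LPS against control). Its 3 groups did not overlap, while 15.2% of genes had lower values in every TNP-LPS than in any control library, 8.72% in every TNP-KLH than in any control library and 9.36% in every TNP-LPS than in any TNP-KLH library. The other of the 2 kept Mlx rows was not called without the block. Its log2 fold change was −0.26 for TNP-LPS against control and 0.084 between the antigens. The 5 rows of MGA, a large Max-binding protein, had log2 fold changes of 0.48 to 0.82 for TNP-LPS against control. None was called without the block, and 2 were called higher with it. No row of the network was called for TNP-KLH against control or between the antigens by edgeR without the block, with 2 and 4 rows at an unadjusted p under 0.05, and none by DESeq2. With the block, 7 rows of the network were called higher and 3 lower for TNP-LPS against control, 0 and 1 for TNP-KLH against control, and 1 and 0 between the antigens. The block called 16.3% of all genes higher and 14.2% lower with TNP-LPS, 6.05% and 4.23% with TNP-KLH, and 8.49% and 5.94% between the antigens. Without the 3 libraries numbered 2, none of the network was called higher and 1 row lower for TNP-LPS against control (4 at an unadjusted p under 0.05).

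**Figure D4:**
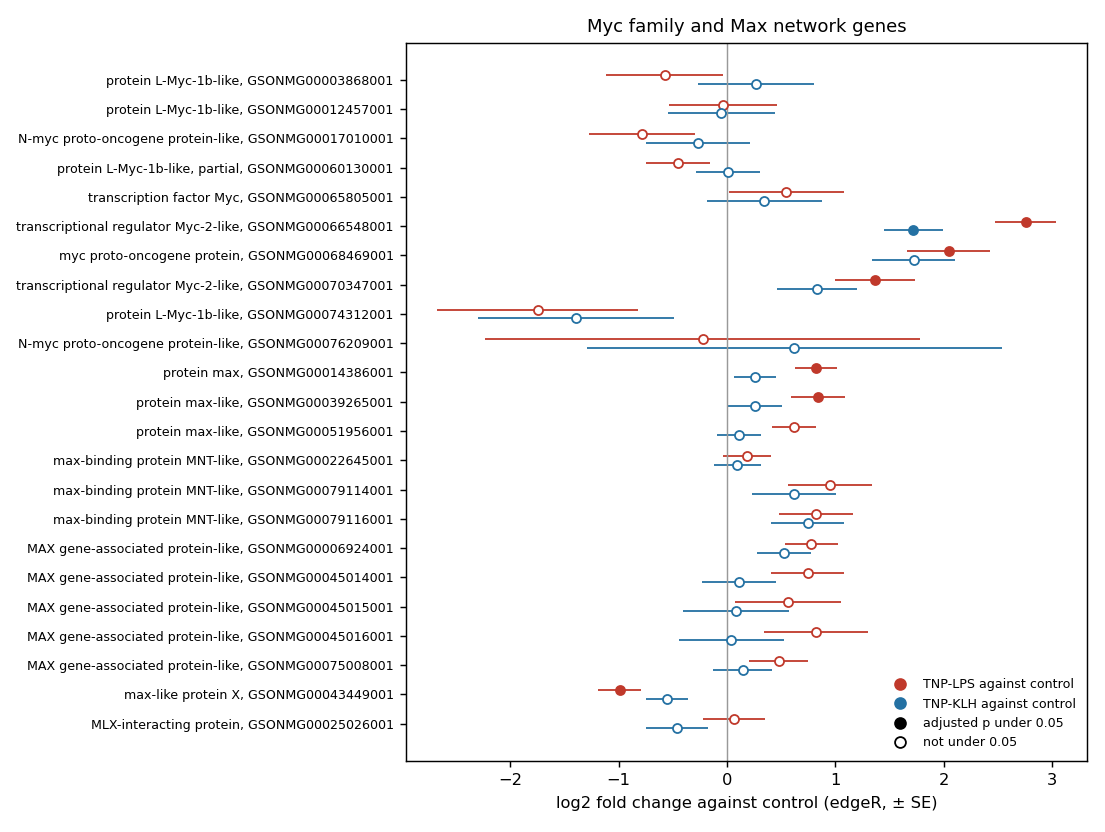
log2 fold change against control ± SE (horizontal axis) of the 10 Myc family rows and of the Max and Mlx network rows with at least 5 CPM in a group, for TNP-LPS (red) and TNP-KLH (blue), filled where edgeR's adjusted p was under 0.05. The Myc-2-like row GSONMG00066548001 and the Myc proto-oncogene lie farthest to the right, at 2.76 and 2.05 with TNP-LPS, and the Max rows lie between 0.62 and 0.84.

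Genes that act with Myc on chromatin, or set its level, were searched as a list of 63 rows, of which 56 were kept, and 12 rose and none fell with TNP-LPS (22 at an unadjusted p under 0.05 in either direction, and 14 higher and 1 lower with DESeq2, which called 13.8% of genes higher and 10.4% lower). By edgeR without the block, 21.4% of the kept rows were called higher. Of all genes, 10% were called higher and 6.73% lower. The median log2 fold change was 0.32, beside −0.09 over all genes. Without the 3 libraries numbered 2, 7 rows were called higher. The roles given are those known in mammals. RuvB-like 1 and 2 are ATPases of chromatin remodelling complexes that bind Myc, and all 3 rows rose. RuvB-like 2 (GSONMG00078153001) had 277, 223 and 211 CPM in TNP-LPS libraries, 84.3, 81.9 and 82.1 CPM in TNP-KLH libraries and 37.0, 34.3 and 34.1 CPM in control libraries. The groups were far apart and narrow, with log2 fold changes of 2.75 ± 0.20 for TNP-LPS against control (edgeR, adjusted p = 2.34e-04), 1.24 ± 0.19 for TNP-KLH against control (adjusted p = 0.0359) and 1.52 ± 0.19 between the antigens (adjusted p = 0.0161). The RuvB-like 1 rows had log2 fold changes of 2.10 (GSONMG00038129001) and 2.62 (GSONMG00075833001) with TNP-LPS, and both were called between the antigens too. These 3 rows were the ones of the list called between the antigens, and RuvB-like 2 and GSONMG00075833001 were the ones called with TNP-KLH. Of all genes, 2.12% were called higher between the antigens and 0.76% with TNP-KLH.

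TRRAP, the scaffold through which Myc recruits histone acetyltransferases, rose in both of its rows, by 1.64 ± 0.32 (GSONMG00063586001) and 1.20 ± 0.26 (GSONMG00063587001) in log2 fold change. WDR5, which anchors Myc to chromatin, rose in both rows, by 2.14 ± 0.30 (GSONMG00062575001) and 1.26 ± 0.21 (GSONMG00060892001). All 4 rows of FUBP1, which binds upstream of the human MYC gene and drives its transcription, rose with log2 fold changes of 1.20 to 2.08. None of these 8 rows was called with TNP-KLH by edgeR without the block (log2 fold changes of 0.30 to 1.48).

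Of the genes that set the life of the Myc protein, a pim-2-like kinase (GSONMG00009919001) rose with TNP-LPS, and pim kinases stabilise Myc by phosphorylation. It was the one of 6 kept pim rows called without the block, over a range of log2 fold changes for TNP-LPS against control of −2.73 to 2.48, and with the block 4 were called higher and none lower. It had 991, 1469 and 702 CPM in TNP-LPS libraries, 1114, 1404 and 883 CPM in TNP-KLH libraries and 319, 572 and 434 CPM in control libraries, so both antigens lay above control and overlapped with each other. Its log2 fold change was 1.25 ± 0.32 for TNP-LPS against control (edgeR, adjusted p = 0.0252), 1.36 ± 0.32 for TNP-KLH against control (adjusted p = 0.0927, and 7.73e-04 with the block) and −0.10 between the antigens. No row of FBXW7 or SKP2, which mark Myc for degradation, or of GSK3B, which phosphorylates it for FBXW7, was called by edgeR without the block, with log2 fold changes for TNP-LPS against control of −0.55 to −0.36 over 3 FBXW7 rows and −0.72 to 0.76 over 6 GSK3B rows. The block moved the count of the list to 21 higher and 1 lower with TNP-LPS (of all genes, 16.3% and 14.2%), to 9 higher and 1 lower with TNP-KLH (6.05% and 4.23%), and to 11 higher and none lower between the antigens (8.49% and 5.94%).

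Genes known in mammals as Myc targets were searched by their descriptions in 4 lists of induced targets and 1 of repressed targets. Of 219 induced rows, 190 were kept, and with TNP-LPS 112 were called higher and 6 lower, with a median log2 fold change of 1.73. The shares called higher and lower were 58.9% and 3.16%, beside 10% and 6.73% of all genes. With TNP-KLH 33 were higher and none lower, where 0.117% of all genes were called lower (115 at an unadjusted p under 0.05 in either direction, and 84 higher and 4 lower with DESeq2), with a median of 0.88, and between the antigens 62 were higher and none lower, where 0.745% of all genes were called lower (109 at an unadjusted p under 0.05, and 89 higher and none lower with DESeq2), with a median of 0.86. DESeq2 called 2.1% of all genes lower with TNP-KLH and 3.46% between the antigens. Without the block, edgeR called 0.76% of all genes higher with TNP-KLH and 2.12% between the antigens. The counts of the list depended on the fit: the block gave 102 higher and 6 lower with TNP-KLH, and 105 and 2 between the antigens. With TNP-LPS it gave 125 higher and 10 lower. Of all genes, the block called 6.05% higher and 4.23% lower with TNP-KLH, 8.49% and 5.94% between the antigens, and 16.3% and 14.2% with TNP-LPS. Without the block, the count for TNP-KLH was 48 without TNP-LPS replicate 1 and 0 without any other single library, when at most 1 gene of the whole table was called higher. Between the antigens it was 0 without any TNP-KLH library, TNP-LPS replicate 1 or TNP-LPS replicate 2, 22 without control replicate 1, 31 without TNP-LPS replicate 3 and 38 without control replicate 3. Without the 3 libraries numbered 2, TNP-LPS against control gave 101 higher and 1 lower, while none was called with TNP-KLH (101 at an unadjusted p under 0.05) or between the antigens (103).

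In the ribosome biogenesis list, 56 of 68 kept rows were higher and 5 lower with TNP-LPS (median log2 fold change 2.18), 19 higher with TNP-KLH (median 1.01) and 40 higher between the antigens (median 1.11). The shares called higher and lower with TNP-LPS were 82.4% and 7.35%, beside 10% and 6.73% of all genes, so the share called lower was near that of all genes. Of all genes, 0.76% were called higher with TNP-KLH and 2.12% between the antigens. With the block, 50 were higher and 3 lower with TNP-KLH, and 53 higher and 1 lower between the antigens. Of all genes, the block called 6.05% higher and 4.23% lower with TNP-KLH, and 8.49% and 5.94% between the antigens. Fibrillarin (GSONMG00011154001), which methylates ribosomal RNA, had 483, 395 and 358 CPM in TNP-LPS libraries, 176, 181 and 156 CPM in TNP-KLH libraries and 69.2, 54.0 and 61.7 CPM in control libraries. Its 3 groups did not overlap, as for Myc-2-like, and it was called in all comparisons, with a log2 fold change of 2.74 ± 0.21 for TNP-LPS over control, 1.47 ± 0.20 for TNP-KLH over control and 1.27 ± 0.20 between the antigens. The second largest subunit of RNA polymerase I, RPA2 (GSONMG00078075001), which transcribes ribosomal RNA, averaged 125 ± 10.8 CPM in TNP-LPS cells, 58.2 ± 7.37 CPM in TNP-KLH cells and 22.3 ± 1.94 CPM in control cells. The pre-rRNA processing genes BOP1 (GSONMG00021111001) and NOP58 (GSONMG00065249001) had log2 fold changes of 2.39 and 2.59 with TNP-LPS. The 5 rows that fell were copies of genes that also had rows among those that rose or did not pass: 3 of the 6 rows of UBTF, an activator of RNA polymerase I (GSONMG00011263001, log2 fold change −2.11, GSONMG00055638001, −1.35), and 2 of the 4 of nucleophosmin, a nucleolar chaperone (GSONMG00029139001, −1.09, GSONMG00026405001, −0.81). Without the 3 libraries numbered 2 none of the 5 was called lower.

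For metabolism and uptake, 28 of 60 kept rows were higher and none lower with TNP-LPS (35 at an unadjusted p under 0.05 in either direction, and 31 higher and none lower with DESeq2), with a median log2 fold change of 1.54. Hexokinase-2-like (GSONMG00057336001), which traps glucose in the cell, had 41.9, 42.6 and 39.5 CPM in TNP-LPS libraries, 25.4, 26.5 and 23.2 CPM in TNP-KLH libraries and 8.60, 10.1 and 7.16 CPM in control libraries. These groups were narrow and did not overlap, with log2 fold changes of 2.26 ± 0.19 (TNP-LPS against control) and 1.54 ± 0.19 (TNP-KLH against control). A transferrin receptor 1-like row (GSONMG00062454001), which takes up iron, averaged 362 ± 40.9 CPM in TNP-LPS cells, 169 ± 3.07 CPM in TNP-KLH cells and 82.0 ± 8.02 CPM in control cells. A large neutral amino acid transporter small subunit 1-like row (GSONMG00080047001) and the mitochondrial folate enzyme MTHFD2 (GSONMG00074922001) rose with TNP-LPS by 2.80 and 2.32 in log2 fold change and with TNP-KLH by 1.90 and 1.48. With TNP-KLH 5 rows of the list were called, and 7 between the antigens. The block gave 36 higher and 1 lower with TNP-LPS, 27 and 1 with TNP-KLH, and 23 and 1 between the antigens.

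Targets in translation and mitochondria followed, with 25 of 34 kept rows higher and none lower with TNP-LPS (median log2 fold change 1.92), 9 higher with TNP-KLH and 14 between the antigens (22 and 26 with the block). Both rows of the mitochondrial 60 kDa chaperone were called in every comparison, and GSONMG00032093001 averaged 876 ± 118 CPM in TNP-LPS cells, 396 ± 8.16 CPM in TNP-KLH cells and 141 ± 26.1 CPM in control cells. The cap-binding factor eIF4E rose in rows GSONMG00070171001 (log2 fold change 2.41 with TNP-LPS and 1.31 with TNP-KLH) and GSONMG00055973001 (2.09 and 1.20). All 8 rows of the scaffold eIF4G1 rose with TNP-LPS, by 1.73 to 2.35.

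The cell cycle list stood near the background, with 3 of 28 kept rows higher and 1 lower with TNP-LPS and a median log2 fold change of 0.27. Of all genes, 10% were called higher and 6.73% lower in this comparison. The replication helicase subunit Mcm4 (GSONMG00069247001) averaged 80.8 ± 22.4 CPM in TNP-LPS cells, 50.1 ± 11.7 CPM in TNP-KLH cells and 24.2 ± 7.42 CPM in control cells (log2 fold change 1.74 for TNP-LPS against control). It was the 1 of 3 Mcm4 rows called without the block, over log2 fold changes of 1.09 to 1.84. The Mcm5 rows (0.26 to 0.41) and the Mcm7 row (0.30) were not called with TNP-LPS, with the block or without it. The other calls were cyclin-dependent kinase 4 rows, which drive entry into the cycle, of which GSONMG00012312001 and GSONMG00012313001 were higher and GSONMG00064208001 lower. The cyclin A2, cyclin E1 and Cdc25A rows, which act at the start of DNA synthesis, had log2 fold changes of −1.72 to −0.91 for TNP-LPS against control. For TNP-KLH against control the cyclin A2 and E1 rows had −1.64 to −0.38 and the Cdc25A row 2.87. None of these rows was called without the block. The Cdc25A row, at −4.59 between the antigens, was not called with the block in any comparison, so its values give no direction. With the block, 1 cyclin A2 and 1 cyclin E1 row were called lower with TNP-LPS, and 1 cyclin E1 row with TNP-KLH. No row was called with TNP-KLH by edgeR without the block (5 at an unadjusted p under 0.05, and 2 higher and 1 lower with DESeq2). The block called 5 rows higher and 3 lower with TNP-LPS, 3 and 2 with TNP-KLH, and 3 and 0 between the antigens. Of all genes, the block called 16.3% higher and 14.2% lower with TNP-LPS, 6.05% and 4.23% with TNP-KLH, and 8.49% and 5.94% between the antigens.

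Among targets that Myc represses in mammals, 4 of 22 kept rows fell and none rose with TNP-LPS. The median log2 fold change was −1.53. At an unadjusted p under 0.05 there were 6 rows in either direction, and DESeq2 called 6 lower and none higher. Of all genes, 6.73% were called lower with TNP-LPS by edgeR and 10.4% by DESeq2. Without the 3 libraries numbered 2, 1 row was called lower. With the block, 8 were lower with TNP-LPS, 5 with TNP-KLH and 3 between the antigens, and none higher. Of all genes, the block called 14.2%, 4.23% and 5.94% lower in these comparisons. A pair of rows of a cyclin-dependent kinase inhibitor 1-like gene, of the family of p21 that halts the cycle, averaged 2.32 ± 0.374 (GSONMG00019195001) and 1.57 ± 0.868 CPM (GSONMG00058580001) with TNP-LPS, against 7.90 ± 3.70 and 8.73 ± 7.47 CPM in control cells. NDRG1-like (GSONMG00039939001), a growth arrest gene, had 0, 0 and 4 reads in TNP-LPS libraries, 24, 37 and 39 in TNP-KLH libraries and 156, 91 and 285 in control libraries. NDRG2-like (GSONMG00062600001), named after its values were seen, had 1, 1 and 4 reads in TNP-LPS libraries, 11, 6 and 8 in TNP-KLH libraries and 18, 31 and 52 in control libraries. The inhibitor p27, CDKN1B (GSONMG00051154001), had 9.01, 30.5 and 17.5 CPM in TNP-LPS libraries, 24.3, 46.7 and 26.8 CPM in TNP-KLH libraries and 33.1, 78.8 and 51.9 CPM in control libraries, with an adjusted p of 0.0532 for TNP-LPS against control without the block and 8.13e-06 with it. Of the 22 rows, 2 had a positive log2 fold change for TNP-LPS against control. These were another row of the p21 gene kind (0.57) and another CDKN1B row (1.97). Neither was called without the block or called higher with it.

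**Figure D5:**
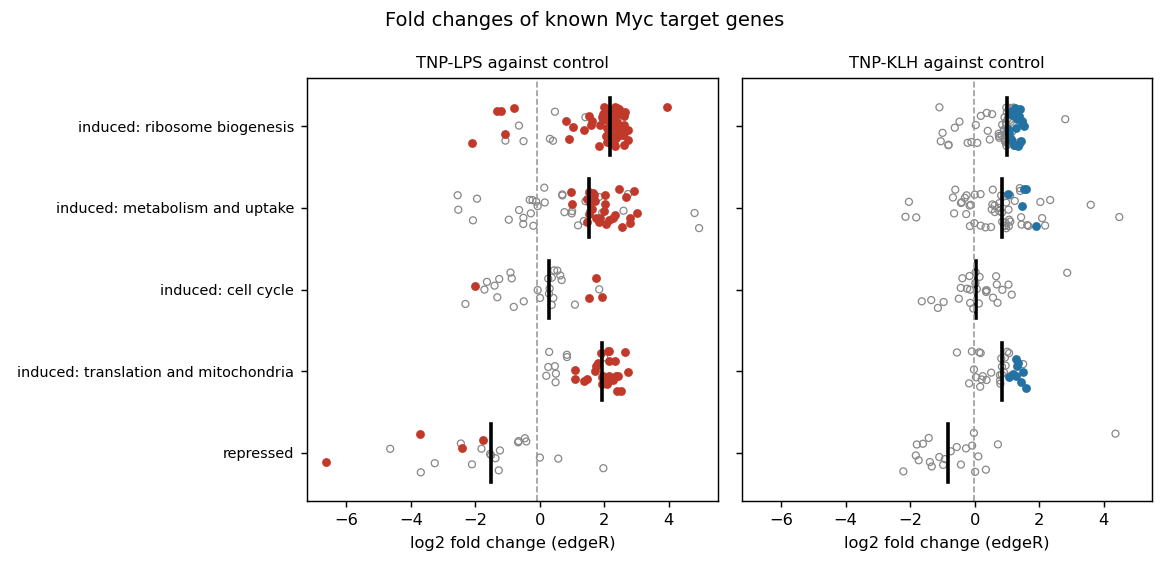
log2 fold change of each kept row in the lists of known Myc targets (horizontal axis, 1 circle a row, black bars for list medians) in the comparisons of each antigen with control, filled where edgeR's adjusted p was under 0.05, with the median of all genes as a dashed line. The ribosome biogenesis list has a median of 2.18 with TNP-LPS and 1.01 with TNP-KLH, while the cell cycle list has 0.27 and 0.049.

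Markers of other cells were summed in each library. The summed thrombocyte markers, 12 rows of which 10 were kept, lay at 28.1 to 75.6 CPM in TNP-LPS libraries, 40.2 to 76.4 CPM in TNP-KLH libraries and 84.9 to 284 CPM in control libraries, and 4 of them fell with TNP-LPS, namely a pair of thrombopoietin receptor-like rows (GSONMG00024376001 and GSONMG00048176001), integrin alpha-IIb (GSONMG00067899001) and platelet glycoprotein Ib alpha (GSONMG00032549001). The erythrocyte markers, 37 rows with 23 kept, lay at 31.7 to 390 CPM in TNP-LPS libraries, 39.8 to 2372 CPM in TNP-KLH libraries and 94.7 to 6887 CPM in control cells. T cell and NK cell markers (10 rows) lay at 14.7 to 73.4 CPM in TNP-LPS, 8.18 to 89.4 CPM in TNP-KLH and 6.38 to 99.1 CPM in control libraries. Monocyte and macrophage markers (34 rows, 16 kept) lay at 41.9 to 62.4 CPM in TNP-LPS, 52.3 to 81.1 CPM in TNP-KLH and 59.5 to 93.7 CPM in control libraries. A row of LCK1, a T cell kinase, rose with TNP-LPS (GSONMG00053151001, 27.1 ± 16.0 against 5.59 ± 3.45 CPM in control cells), while 3 of the 10 rows of its list had a positive log2 fold change, the median was −1.29, and with the block 1 row was called higher and 2 lower. Neutrophil markers (5 rows, 3 kept) lay at 67.7 to 100.4 CPM in TNP-LPS, 133 to 192 CPM in TNP-KLH and 64.0 to 89.7 CPM in control libraries, with neutrophil cytosol factor 2-like (GSONMG00073143001) higher with TNP-KLH and an eosinophil peroxidase-like row (GSONMG00079314001) lower with TNP-LPS. Neutrophil cytosol factor 2-like made up most of the sum, at 124 to 191 CPM in TNP-KLH libraries, and was the 1 row of 3 with a positive log2 fold change for TNP-KLH against control (median −1.53, and 1 higher and 1 lower with the block). By edgeR without the block no erythrocyte row was called with TNP-LPS (3 at an unadjusted p under 0.05, and 1 lower with DESeq2). With the block, 22 of 23 erythrocyte rows were lower with TNP-LPS, 1 with TNP-KLH and 2 between the antigens, and of the thrombocyte rows 7, 4 and 0 were lower. Of all genes, the block called 14.2%, 4.23% and 5.94% lower in these comparisons. Without the block, 6.73% of all genes were called lower and 10% higher with TNP-LPS, and 0.76% higher with TNP-KLH.

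Defining markers were at 0 in some libraries, CD8 in 3, CSF3R in 1 and the myeloperoxidase rows in 1. The B cell markers, 15 rows with 14 kept, summed to 1652 to 1949 CPM in TNP-LPS libraries, 1952 to 2342 CPM in TNP-KLH libraries and 2720 to 3457 CPM in control cells. Without the block 6 of these rows fell with TNP-LPS, where 6.73% of all genes were called lower. With the block 8 fell with TNP-LPS, 3 with TNP-KLH and 7 between the antigens, beside 14.2%, 4.23% and 5.94% of all genes. The part of these cells in the Myc values was not tested. In bulk libraries, fewer cells of a type and less RNA per cell cannot be told apart.

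The genes most alike to each member in pattern were sought by Pearson correlation of log2 CPM over the 9 libraries, among 15984 genes with a description other than uncharacterized and at least 5 CPM on average. Since 3 groups of 3 libraries share this pattern, many genes correlate highly: 1060 genes had r above 0.9 with Myc-2-like and 147 with the Myc proto-oncogene. Nearest to Myc-2-like were a pair of rows of the RNA helicase DDX5 (GSONMG00059059001, r = 0.989, and GSONMG00052587001, r = 0.986), a RanBP2-like nuclear pore SUMO ligase (GSONMG00003481001, r = 0.988), the RNA polymerase I subunit RPA1 (GSONMG00062475001, r = 0.987) and cysteine and histidine-rich domain-containing protein 1 (GSONMG00043751001, r = 0.986). DDX5 GSONMG00059059001 had 1201, 1357 and 1195 CPM in TNP-LPS libraries, 734, 838 and 678 CPM in TNP-KLH libraries and 287, 350 and 234 CPM in control cells, so it repeats the order of groups and, within each group, the high library 2 and low library 3.

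Nearest to the Myc proto-oncogene were FAM46C (GSONMG00082103001, r = 0.986), a large neutral amino acid transporter small subunit 3-like row (GSONMG00078698001, r = 0.979), a hemicentin-1-like row (GSONMG00021640001, r = 0.976), neutral amino acid transporter B(0) (GSONMG00010387001, r = 0.964) and an Mcl-1-like survival factor (GSONMG00052810001, r = 0.962). FAM46C had 35.1, 51.8 and 27.0 CPM in TNP-LPS libraries, 32.2, 41.2 and 23.0 CPM in TNP-KLH libraries and 13.7, 13.4 and 11.3 CPM in control cells, with the antigens overlapping as for the Myc proto-oncogene. The Myc proto-oncogene itself ranked 344 in the order for Myc-2-like, with r = 0.944, and Myc-2-like ranked 25 in the order for the Myc proto-oncogene.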

How the data were processed

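The deposited values used are raw read counts per gene. The authors trimmed adapters, mapped single reads of stranded total RNA libraries with TopHat to the Genoscope trout genome and counted them with SAMtools and HTSeq. Tool versions, and how strand was counted, are not stated in these sources. The authors' DESeq means, fold changes and p-values stand beside the counts and were not used. The sample labels give the antigen dose as 5 mg/ml, in another unit than the methods of the study. Identifiers matched 0 entries of the RefSeq table, so no positions or sequences are given.

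Counts of all 9 libraries, 8080787 to 12164154 each, were fitted with edgeR 4.0.16 (R 4.3.3, TMM, 1 factor of 3 groups) once genes that reached 5 reads in no library had been removed. The model was tested on simulated data. Their spread between libraries was below the common estimate for these libraries, and they held no effect of the library number. log2 CPM used a prior count of 2. Alternatives were the replicate number as a block, DESeq2 1.42.0, its size factors, no filter, at least 10 reads in at least 3 libraries, only the 6 libraries compared, each library left out and the 3 libraries numbered 2 left out. Leaving out each library in the blocked fit was added after seeing the data. The numbers pair the samples by their values: all 9 same-numbered pairs correlated at 0.227 to 0.645 in their deviations from group means, and the 18 other pairs at −0.499 to 0.0345.

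The members and lists were chosen with earlier results of these data known. Lists were drawn by words in the deposited descriptions, and wrong matches were removed by description after the files were read. Named are the members, the Myc family, network and cofactor genes with at least 5 CPM in a group, up to 4 genes per target list and direction by the smallest p for TNP-LPS against control, the 5 most alike genes and called markers. Counting error and spread between libraries are the only errors covered.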

Additional observations from a re-analysis of the deposited data

How the results depend on the processing

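For TNP-LPS against control both Myc genes stayed called under every alternative run, with log2 fold changes of 2.64 to 2.93 for Myc-2-like and 1.72 to 2.31 for the Myc proto-oncogene when 1 library was left out. For TNP-KLH against control, Myc-2-like (1.72) lost its call with only the 2 groups compared (1.74) and without the 3 libraries numbered 2 (1.75), and ran from 1.57 to 2.01 with 1 library left out. The Myc proto-oncogene (1.73) gained the call with the replicate block (1.67) and DESeq2 (1.73), and ran from 1.35 to 2.06 with 1 library left out (1.60 to 1.88 with the block). Between the antigens, Myc-2-like (1.04) gained the call with the replicate block (1.07) and DESeq2 (1.02), and ran from 0.75 to 1.18 with 1 library left out (0.85 to 1.17 with the block). The block changed no other call of the members. The difference of the Myc proto-oncogene between the antigens ran from −0.0085 to 0.70.

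Induced targets higher with TNP-KLH, 33, became 102 with the replicate block, 84 with DESeq2, 53 with the stricter filter and 0 with only the 2 groups or without the 3 libraries numbered 2, and ran from 0 to 48 with 1 library left out (74 to 106 with the block). Between the antigens, 62 became 105 with the block, 1 with only the 2 groups and 0 without the 3 libraries numbered 2, and ran from 0 to 56 (79 to 112 with the block). Over all genes, the 241 and 37 called higher and lower with TNP-KLH became 1918 and 1340 with the block and 1007 and 417 with DESeq2, the 673 and 236 between the antigens 2692 and 1883 and 1591 and 730, and the 3181 and 2133 with TNP-LPS became 5167 and 4489 with the block. The log2 ratio of the members, TNP-KLH less control, 0.024, ran from −0.088 to 0.19 with 1 library left out, below 0 without TNP-KLH replicate 1, TNP-KLH replicate 3 or control replicate 2. The cause of these changes was not tested. Both Myc genes had at least 300 reads in every library.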
